A study of Mus musculus with 12 samples.

Results

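Livers of mice with diet-induced metabolic dysfunction-associated steatohepatitis (MASH), in which fat overload comes with inflammation and cell injury, were compared with the livers of control mice, which makes 6 of the 12 livers of the study. The 3 MASH livers came from the inbred strain C57BL/6J on a high-fat diet, which induced the disease. The 3 control livers came from mice of the same strain on normal chow. After 8 weeks of model establishment, both groups were given the vehicle, 0.5% CMC-Na, by mouth for 4 weeks, so the livers stand for 12 weeks of study. The other 6 livers, from MASH mice given Eleutheroside E or resmetirom, enter here through the shared estimate of spread in some fits. The labels name the samples as mouse replicates without giving the sex of the mice, the composition of the diet or the hour of collection, and p-values measure the spread between these samples. Livers are written as group and replicate number. The comparison addresses which transcripts of the liver differed in the untreated diet model.

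A fat-loaded liver takes up and stores fatty acids in droplets coated by perilipins, and it burns them in mitochondria and peroxisomes under the nuclear receptor PPAR alpha. It also makes fatty acids and cholesterol under the SREBP factors and exports lipid on apolipoproteins. Hepatocytes are zoned from the portal to the central vein: urea synthesis and gluconeogenesis lie near the portal vein, and glutamine synthesis and many cytochromes P450 lie near the central vein. In steatohepatitis, recruited macrophages join the resident Kupffer cells, and stellate cells lay down matrix.

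RNA was measured by sequencing, the deposited values are expected counts for each gene, and 13988 of the 28036 genes in the table had enough counts to be tested. Library totals of the 6 livers ranged from 17297875 to 21793332 counts. The unit of a level is CPM, in which edgeR's trimmed-mean factors set the library size, which allows a comparison of a gene between livers but not between genes of unequal length. Fold changes are log2 values, MASH minus control. Albumin (Alb), the defining product of hepatocytes, was abundant in every liver.

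Control 1 stood apart from the other 5 livers. Mitochondrially encoded transcripts took 35.4% of its counts and 3.48% to 4.38% of theirs. Across genes its log2 CPM correlated with the others at 0.882 to 0.893 (Pearson), while the other 5 correlated with each other at 0.968 to 0.984. In CPM it lay above all 5 for 4993 genes (35.7%) and below all 5 for 5626 (40.2%). The median longest transcript was 2564 bases for the genes above and 3725 bases for the genes below. The trimmed-mean factor raised every level of control 1 over its share of the library total. Its 31 counts of Glcci1 in a total of 19600134 became 3.12 CPM, while 54 counts in 21793332 became 2.28 CPM in control 2. The rank of control 1 among the livers was not counted by library totals alone, where it can differ. The sign of the log2 fold change differed with and without control 1 for 3830 genes (27.4%). Lists are therefore described with and without control 1, and its level is given beside most genes, while the part that it has in each result was not tested. In bulk tissue, fewer cells of a type and less RNA per cell cannot be told apart.

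**Figure D1:**
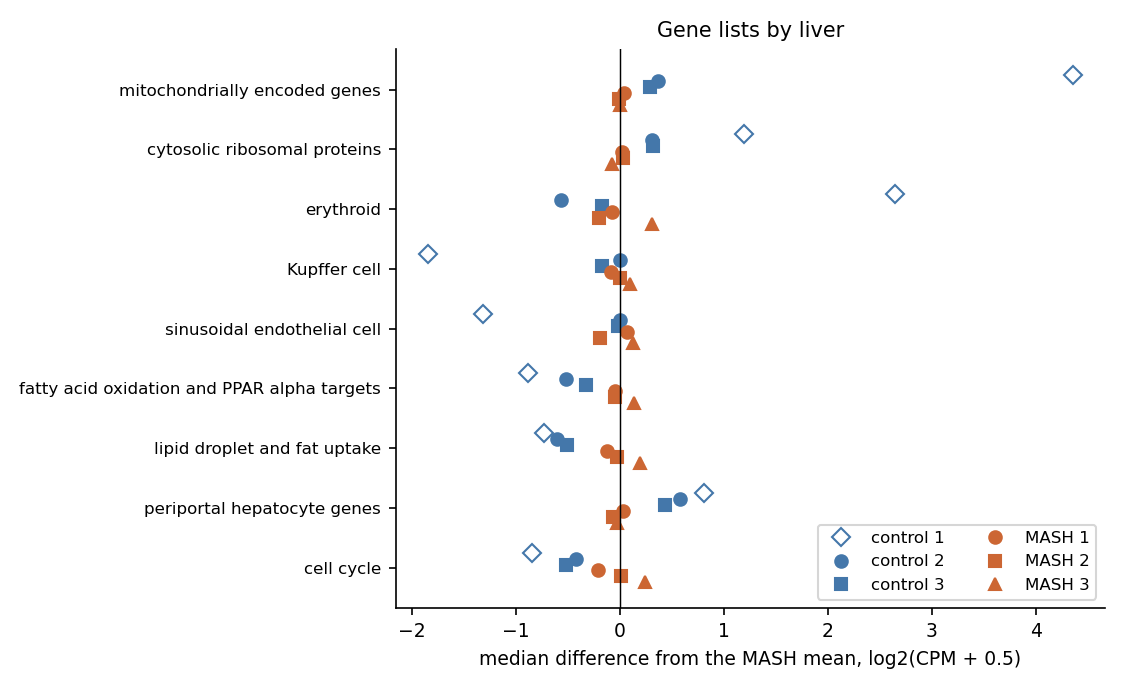
Median difference from the MASH mean on the log2(CPM + 0.5) scale (x axis) for 9 gene lists (y axis) in each of the 6 livers, with 1 symbol per liver. Control 1 (open diamond) lies at 4.36 for mitochondrially encoded genes, 2.64 for erythroid genes and -1.85 for Kupffer cell genes, away from control 2 and control 3.

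In the fit of all 12 livers, Glcci1 and Cyp2c55 passed edgeR at an adjusted p below 0.05, both lower in MASH (2 of 13988 genes, 0.0143%). In the fit of the 11 livers without control 1, Zbtb16 and Tbc1d8 passed as well, also lower (4 genes, 0.0286%). No gene was higher in either fit. At an unadjusted p below 0.05 there were 1291 genes with control 1 (9.23%) and 901 without it (6.44%). The windows of 250 bases before the start site of 3 of these genes, from RefSeq on GRCm38.p6, are printed here to show what kind of promoter each gene has, and the start farthest upstream was taken where the table had more than 1. Capitals mark TATAAA, the core of the TATA box.

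Glcci1, chr6:8509350-8509599, + strand: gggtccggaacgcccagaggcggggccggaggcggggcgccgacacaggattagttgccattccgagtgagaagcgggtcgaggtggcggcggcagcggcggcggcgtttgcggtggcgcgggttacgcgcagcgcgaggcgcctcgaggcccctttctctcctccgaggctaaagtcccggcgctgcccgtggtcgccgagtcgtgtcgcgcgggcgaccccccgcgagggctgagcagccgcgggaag
Cyp2c55, chr19:39006769-39007018, + strand: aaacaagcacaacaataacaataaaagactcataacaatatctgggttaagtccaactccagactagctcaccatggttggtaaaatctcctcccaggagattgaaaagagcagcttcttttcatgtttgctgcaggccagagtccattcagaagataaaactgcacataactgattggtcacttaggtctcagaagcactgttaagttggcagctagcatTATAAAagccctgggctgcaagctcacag
Tbc1d8, chr1:39478756-39479005, - strand: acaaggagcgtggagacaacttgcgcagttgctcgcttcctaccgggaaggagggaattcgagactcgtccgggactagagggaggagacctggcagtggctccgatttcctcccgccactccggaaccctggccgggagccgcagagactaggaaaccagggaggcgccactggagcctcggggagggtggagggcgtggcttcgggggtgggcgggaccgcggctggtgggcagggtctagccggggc

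These windows differ in base composition. The Cyp2c55 window has a GC content of 42.4% and no CG pair, with TATAAA at -29 to -24 from the start. Those of Glcci1 and Tbc1d8 have a GC content of 74.4% and 68.0%, with 40 and 20 CG pairs, and hold no TATAAA on either strand. The window of the other Glcci1 start in the table, not printed, holds it at -247 to -242 and -241 to -236, once on each strand. The 10191 tested genes with an entry had 13064 promoter windows. Over the 250 bases before the start, their median GC content was 59.2% and the median number of CG pairs 15. TATAAA occurred on either strand in 8.01% of the full windows of 300 bases (250 before to 50 after the start), which are longer than those printed.

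Glcci1, a glucocorticoid-induced transcript, had 31, 54 and 31 counts in control 1, 2 and 3 and 2, 3 and 2 counts in the MASH livers. As CPM, these are 3.12, 2.28 and 1.57 in controls and 0.0946, 0.126 and 0.0781 in MASH. The log2 fold change was -4.45 ± 0.48 (SE; edgeR adjusted p = 0.0114) with all livers and -4.19 without control 1 (0.013). The groups lay far apart, but the MASH level rests on 7 counts over the 3 livers, so the size of the fold is set loosely.

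Cyp2c55, a cytochrome P450 that oxidises drugs and fatty acids, stood at 6.23, 9.89 and 8.73 CPM in controls and 0.946, 1.13 and 0.82 CPM in MASH. Its log2 fold change was -3.10 ± 0.37 (SE; edgeR adjusted p = 0.0177) with control 1 and -3.25 (0.013) without it. Here control 1 was the lowest control and still lay more than 5 CPM above the highest MASH liver.

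Zbtb16 encodes a zinc finger transcription factor that glucocorticoids induce in many tissues. It stood at 7.44, 24.99 and 31.4 CPM in controls and at 2.22, 1.76 and 2.03 CPM in MASH, so control 1 lay between the groups. The log2 fold change was -3.41 with control 1 (edgeR adjusted p = 0.16) and -3.80 without it (0.0186). Tbc1d8, a protein with a domain of Rab GTPase-activating proteins, stood at 6.33, 25.7 and 23.1 CPM in controls and 7.14, 6.57 and 8.28 CPM in MASH. Control 1 lay just below the lowest MASH liver for this gene. Its adjusted p was 0.508 with control 1 and 0.013 without (edgeR, log2 fold change -1.34 and -1.72).

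The calls changed with the livers in the fit, while the folds of Glcci1 and Cyp2c55 stayed large. With 1 liver left out of the fit of all 12, the log2 fold change of Glcci1 ranged from -4.67 to -4.19 (edgeR adjusted p from 0.013 to 0.209). That of Cyp2c55 ranged from -3.25 to -2.95 (0.013 to 0.287). By count of called genes, leaving out control 2, MASH 1, MASH 2 or MASH 3 gave 0 called genes each, leaving out control 3 gave 1, and leaving out control 1 gave the 4. In the fit without control 1, leaving out any further control or MASH liver gave 0 called genes.

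Another fit used the 5 livers in which control 1 and the treated livers have no part, the 3 MASH livers and control 2 and 3. The common biological coefficient of variation was 0.158 in it, against 0.334 with all 12 livers and 0.27 in the 11 without control 1. It called 217 genes (1.55%), 95 higher (0.679%) and 122 lower (0.872%) in MASH, with 3 residual degrees of freedom. Of the 217, 213 passed in neither of the other fits, where their adjusted p ranged from 0.0891 to 0.969 with all livers. The sign was the same with control 1 for 216 of them, and 143 had no overlap between the 3 MASH and 3 control livers. Of these, 77 were higher and 66 lower in MASH, where 10.2% and 9.41% of all tested genes were without overlap. With limma voom and sample quality weights over all 12 livers, 172 of the 217 passed (3.97% of all tested genes did). Control 1 got a weight of 0.11 there, and resmetirom 1 and resmetirom 2 got 0.23 each. The 217 were picked by a test on 5 of the same livers, so these counts are no separate support. The count fell to 13 without control 2, 27 without control 3, 108 without MASH 2 and 88 without MASH 3, and it was 307 without MASH 1. Scaled by library totals alone, the fit called 170 genes, 105 of them higher, where the main scaling had 95 higher of 217. Below, "rose" and "fell" refer to this fit of 5 livers, and its log2 fold changes and adjusted p are called those of the 5 livers. Genes named from it were picked after their values were seen, unless the rule for named genes also holds them.

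**Figure D2:**
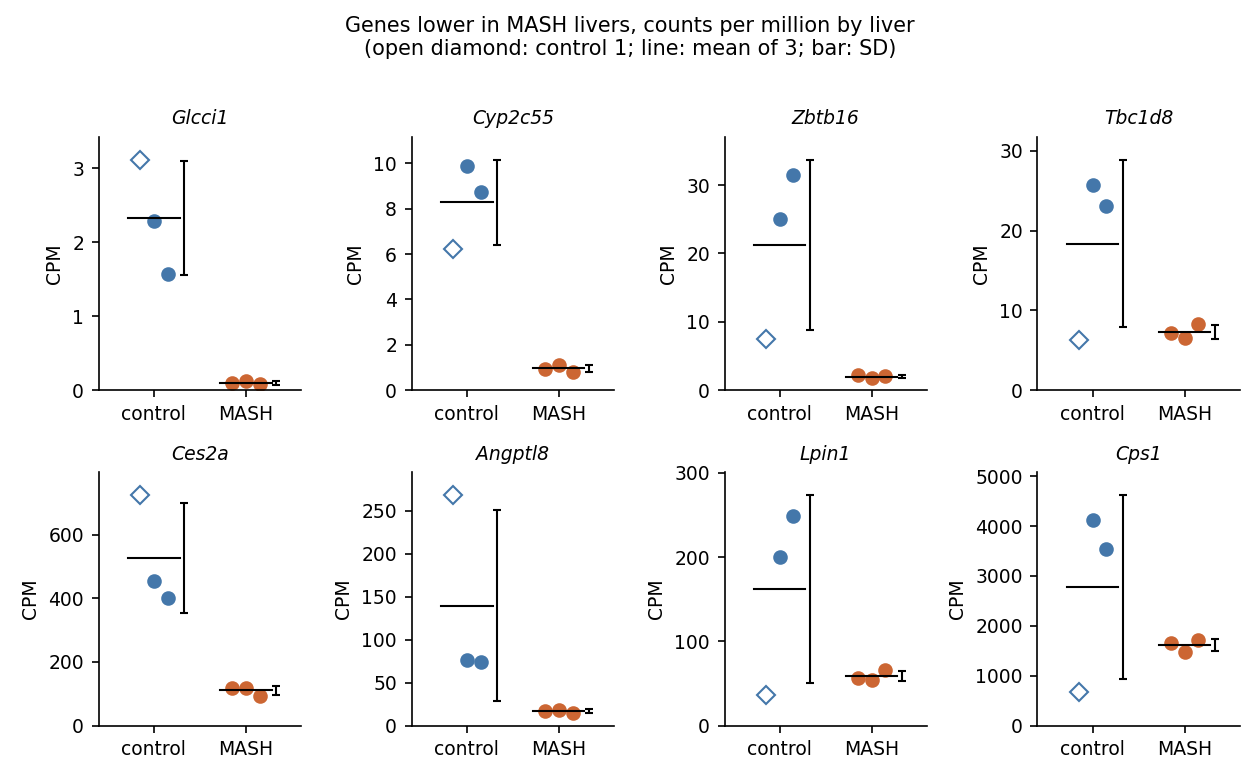
CPM of 8 genes (1 panel each, y axis from 0) in the control and MASH livers (x axis), with every liver as a point, control 1 as an open diamond, the mean of 3 as a line and the SD as a bar. The MASH livers lie close together in each panel, and control 1 lies at or below their range for Tbc1d8, Lpin1 and Cps1 and above the other controls for Angptl8 and Ces2a.

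Fat uptake and droplet genes were mostly higher in MASH. Of the 28 tested members of the list, 25 had a positive log2 fold change with control 1 and 24 without it (48.4% and 50.7% of all tested genes). In 11 of them all 3 MASH livers lay above all 3 controls, and in none below (10.2% and 9.41% of all tested genes). The median was 0.57 with control 1 and 0.66 without, beside -0.02 and 0.00 over all tested genes. In the 5 livers 4 members rose and none fell (0.679% and 0.872% of all tested genes). The counts of every list below are to be read beside the same shares of all tested genes.

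Plin2, the main coat protein of hepatocyte droplets, rose from 423 and 364 CPM in control 2 and 3 to 730, 706 and 971 CPM in MASH, with control 1 at 115 CPM. Its log2 fold change in the 5 livers was 1.05 ± 0.16 (SE; edgeR adjusted p = 0.024). Plin3, another coat protein, rose from 24.1 and 23.9 CPM to 38.7, 35.0 and 46.8 CPM (0.044), and control 1 had 15.8 CPM. Cd36, a fatty acid transporter of the cell surface, rose from 42.4 and 54.8 CPM to 131, 98.2 and 139 CPM (0.0185), and control 1 had 27.5 CPM. Control 1 was the lowest liver for all 3 genes, so the difference was larger with it than without it. Mgll, which splits monoacylglycerols, rose from 141 and 182 CPM to 250, 253 and 304 CPM (0.0477), with 125 CPM in control 1.

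Cidea and Cidec, which fuse droplets, differed more in level but varied more between MASH livers. Cidec stood at 0.101, 1.99 and 1.88 CPM in controls and 13.2, 39.4 and 55.9 CPM in MASH (5 livers adjusted p = 0.141). Cidea had 0, 3 and 0 counts in controls and 26, 300 and 139 in MASH (0.211). Every MASH liver lay above every control for both genes, while MASH 1 was several times lower than MASH 2 and 3. MASH 1 was also the lowest MASH liver for Mogat1, which makes diacylglycerol. Mogat1 stood at 0.804, 0.634 and 0.761 CPM in controls and 2.18, 4.98 and 8.87 CPM in MASH (0.116). Pparg, a nuclear receptor of fat storage, stood at 7.04, 7.82 and 6.24 CPM against 9.98, 18.5 and 16.9 CPM (0.107).

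Adipocyte transcripts were looked at beside these, since adipocytes also express Cidea, Cidec and Plin4. Of 12 adipocyte markers 8 were tested. The droplet protein Plin1 had 0 counts in 5 of the 6 livers and 1 count in MASH 1, and the hormone Retn had 1 count in control 2 and 0 in the rest. Of the 8 tested, 6 had a positive log2 fold change with control 1 and 5 without it (medians 0.51 and 0.66), and in 3 all MASH livers lay above all controls and in none below. Their summed level ranged from 2246 to 2642 CPM in controls and from 1925 to 2469 CPM in MASH, most of it from Car3, a carbonic anhydrase that stood at 2497, 2562 and 2154 CPM in controls and 2376, 1775 and 1898 CPM in MASH. The part of adipocyte RNA in the droplet genes was not tested. Cfd, the complement protease adipsin, stood at 2.91, 1.90 and 2.28 CPM in controls and 16.5, 40.7 and 20.1 CPM in MASH (5 livers adjusted p = 0.072).

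**Figure D3:**
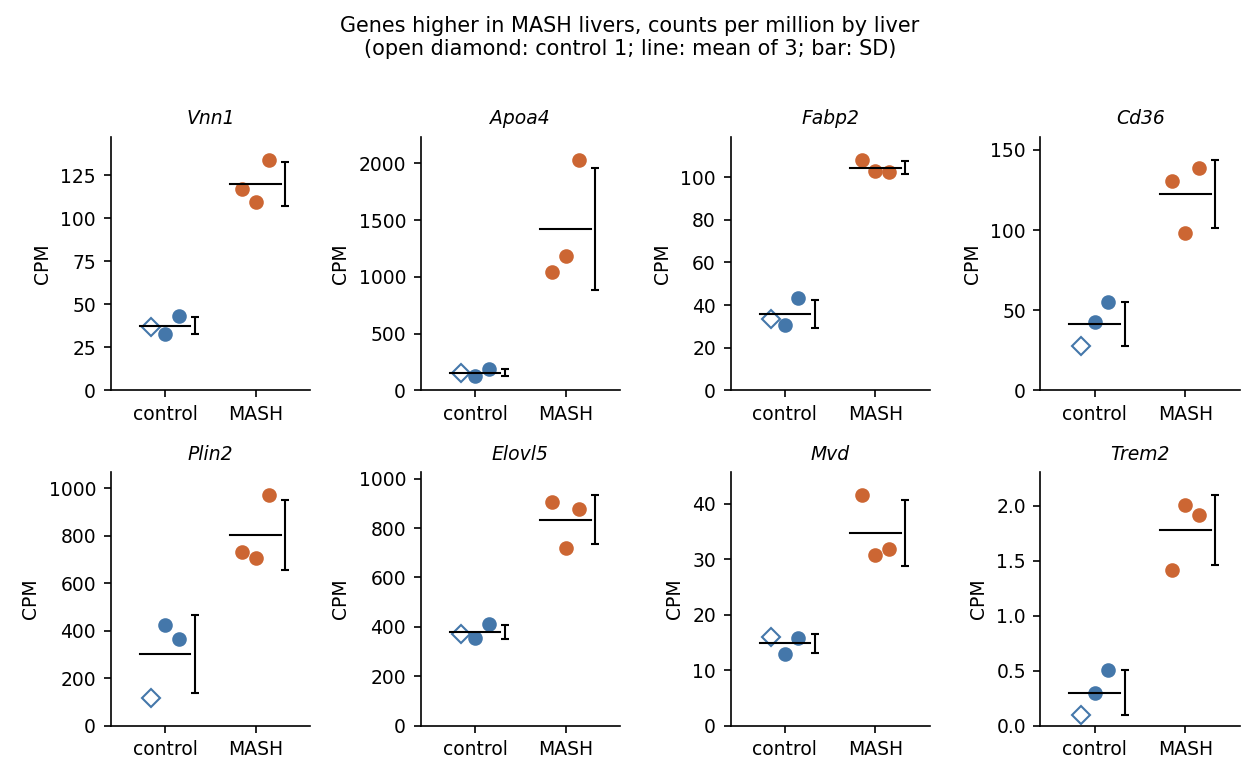
CPM of 8 genes of lipid handling and macrophages (1 panel each, y axis from 0) in the control and MASH livers (x axis), with every liver as a point, control 1 as an open diamond, the mean of 3 as a line and the SD as a bar. Every MASH liver lies above every control liver in each panel, for Vnn1 at 109 to 134 CPM against 33.02 to 43.0 CPM.

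Genes of fatty acid oxidation and PPAR alpha targets were nearly all higher. Of 38 tested members, 37 had a positive log2 fold change with control 1 and 36 without it. In 25 all MASH livers lay above all controls, and in 1 below. The median was 0.68 with control 1 and 0.44 without. In the 5 livers 5 rose and 1 fell. Control 1 lay below all 5 other livers for 23 of the 38.

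Vnn1, a pantetheinase under PPAR alpha, rose from 33.02 and 43.0 CPM in control 2 and 3 to 117, 109 and 134 CPM in MASH (log2 fold change in the 5 livers 1.68 ± 0.15 SE; edgeR adjusted p = 0.00305). Control 1, at 36.6 CPM, lay between the other controls. Aldh3a2, which oxidises fatty aldehydes, rose from 306 and 330 CPM to 604, 688 and 818 CPM (0.0109), with control 1 at 157 CPM. The peroxisomal genes Ech1, an enoyl-CoA isomerase, and Pex11a, which divides peroxisomes, rose by 0.67 and 0.72 on the log2 scale (0.0287 and 0.0486). Control 1, at 301 CPM of Ech1 and 57.8 CPM of Pex11a, lay below every MASH liver for both. Fgf21, a hormone that the liver secretes under PPAR alpha, rose from 1.56 and 1.62 CPM to 6.15, 3.56 and 6.91 CPM (0.0406), and control 1 had 1.51 CPM.

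Cpt1a, which admits fatty acids to mitochondria, stood at 120, 371 and 422 CPM in controls and 418, 554 and 656 CPM in MASH, and MASH 1 lay inside the control range. Angptl4, an inhibitor of lipoprotein lipase that PPAR alpha also induces, went the other way. It fell from 104 and 99.9 CPM in control 2 and 3 to 71.6, 62.7 and 55.9 CPM (0.0406), with 115 CPM in control 1.

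Fatty acid synthesis was mixed, and its picture depended on control 1. Of 25 tested genes 18 were positive with control 1 (median 0.35) and 14 without it (0.08). In 6 all MASH livers lay above all controls. Fasn, the fatty acid synthase, stood at 884 and 843 CPM in control 2 and 3, 252 CPM in control 1 and 845, 700.0 and 1182 CPM in MASH, so the groups overlapped with and without control 1. Elovl5, an elongase of polyunsaturated fatty acids, rose from 355 and 412 CPM to 905, 721 and 876 CPM (5 livers adjusted p = 0.0105), and control 1 had 371 CPM. The desaturases Fads1 and Fads2 stood in every MASH liver above every control, with log2 fold changes of 0.52 and 0.92 in the 5 livers (0.182 and 0.159).

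Of the triglyceride enzymes, Gpat3, which acylates glycerol phosphate, rose from 2.16 and 3.60 CPM in control 2 and 3 to 7.66, 8.07 and 11.6 CPM (5 livers adjusted p = 0.0369), and control 1 had 2.11 CPM. Agpat2, which acts after it, rose by 0.58 on the log2 scale (0.0353), but control 1, at 199 CPM, lay within the MASH range of 188 to 210 CPM. Lpin1, a phosphatidate phosphatase and coactivator, fell from 201 and 249 CPM to 56.2, 54.6 and 66.1 CPM (log2 fold change -1.91 ± 0.13 SE; adjusted p = 0.000637). Control 1 stood at 36.5 CPM, below every MASH liver, so with it the groups overlapped. Mid1ip1, an activator of acetyl-CoA carboxylase, fell by 0.77 (0.0109) and showed the same reversal, with 26.4 CPM in control 1 and 60.6 to 66.3 CPM in MASH.

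Of 26 tested cholesterol synthesis and SREBP2 target genes, 23 were positive with control 1 (median 0.47) and 20 without it (0.25), and control 1 lay below all other livers for 21. In 9 all MASH livers lay above all controls and in 1 below. Mvd, which decarboxylates mevalonate pyrophosphate, rose from 12.9 and 15.8 CPM in control 2 and 3 to 41.6, 30.9 and 31.8 CPM (5 livers adjusted p = 0.0143), and control 1, at 16.0 CPM, stood with the controls. Fdft1, the squalene synthase, rose from 92.8 and 120 CPM to 171, 174 and 154 CPM (0.049), with 70.05 CPM in control 1.

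Apolipoproteins showed no common direction: 9 of 21 tested genes were positive with control 1 and 12 without it (medians -0.06 and 0.06), and control 1 lay above all others for 11. Apoa4, an apolipoprotein that rises with fat load, rose from 128 and 186 CPM in control 2 and 3 to 1042, 1186 and 2031 CPM in MASH (log2 fold change in the 5 livers 3.20 ± 0.40 SE; edgeR adjusted p = 0.0425), and control 1 had 152 CPM. Fabp2, a fatty acid binding protein best known from the gut, rose from 30.6 and 43.4 CPM to 108, 103 and 103 CPM (0.00498). At 33.5 CPM control 1 lay between the other controls, and the adjusted p with all 12 livers was 0.0891. Apoc2, the activator of lipoprotein lipase, rose from 92.0 and 102 CPM to 198, 188 and 239 CPM (0.00976), though control 1 had 187 CPM. Apob and Mttp, which build very-low-density lipoprotein, had log2 fold changes of -0.25 and 0.00 in the 5 livers (0.31 and 0.994).

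Angptl8, an insulin- and feeding-induced regulator of lipoprotein lipase, fell. It stood at 268, 76.3 and 74.5 CPM in controls and 17.03, 18.7 and 14.6 CPM in MASH (log2 fold change in the 5 livers -2.15 ± 0.12 SE; edgeR adjusted p = 0.000377). The lowest control was more than 3 times the highest MASH liver in level, and control 1 was the highest of all. With all 12 livers the adjusted p was 0.246.

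Drug-metabolising enzymes were mostly lower. Of 28 tested cytochromes P450, 20 had a negative log2 fold change with control 1 and 20 without it (medians -0.35 and -0.28). In 11 all MASH livers lay below all controls, and in 2 above (9.41% and 10.2% of all tested genes). In the 5 livers 6 fell and none rose. Cyp3a11, the main drug-oxidising P450 of mouse liver, fell from 4025 and 3955 CPM in control 2 and 3 to 677, 350.0 and 369 CPM (log2 fold change -3.08 ± 0.31 SE; edgeR adjusted p = 0.0208), with control 1 at 2214 CPM. Cyp3a25 fell from 430 and 503 CPM to 296, 249.9 and 266 CPM (0.0244), with 732 CPM in control 1. Cyp1a2, a P450 of the central zone, fell from 758 and 592 CPM to 279, 339 and 316 CPM (0.0109), while control 1 had 1369 CPM. Cyp2c23, an arachidonate epoxygenase, and Cyp2c29 fell by 1.02 and 1.32 on the log2 scale (0.0191 and 0.0145). Control 1 had 676 CPM of Cyp2c23, above every other liver. For Cyp2c29 it stood at 96.7 CPM, below the MASH range of 472 to 688 CPM. Members of the Cyp3a and Cyp2c families share long stretches of sequence, so their counts can be split between copies.

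Cyp2b9 and Cyp2b10 went apart. Cyp2b9 had 6, 0 and 3 counts in controls and 825, 86 and 2029 in MASH (5 livers adjusted p = 0.245). Cyp2b10, a target of the receptor CAR, did not pass the filter on low counts and had 3, 47 and 56 counts in controls and 8, 1 and 7 in MASH. Cyp2e1, which oxidises ethanol, stood at 3145, 5908 and 6993 CPM against 6550, 7303 and 8055 CPM, with overlap.

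Of 45 tested conjugation enzymes and carboxylesterases, 31 were negative with control 1 and 34 without it (medians -0.24 and -0.22). All MASH livers lay below all controls for 13 and above for 4 (9.41% and 10.2% of all tested genes), so those above are no excess. Ces2a, a carboxylesterase of ester and acylglycerol hydrolysis, fell from 454 and 400.2 CPM in control 2 and 3 to 120, 119 and 93.7 CPM (log2 fold change in the 5 livers -1.93 ± 0.13 SE; edgeR adjusted p = 0.000637), and control 1 had 724 CPM. Gsta2, a glutathione transferase, stood at 56.7, 25.8 and 32.5 CPM against 7.90, 4.6 and 10.3 CPM (0.0584). Gstp1 stood at 4023, 2242 and 1247 CPM against 459, 825 and 544 CPM (0.137), and its reads can be split with the near-identical Gstp2. For both transferases every MASH liver was below every control.

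**Figure D4:**
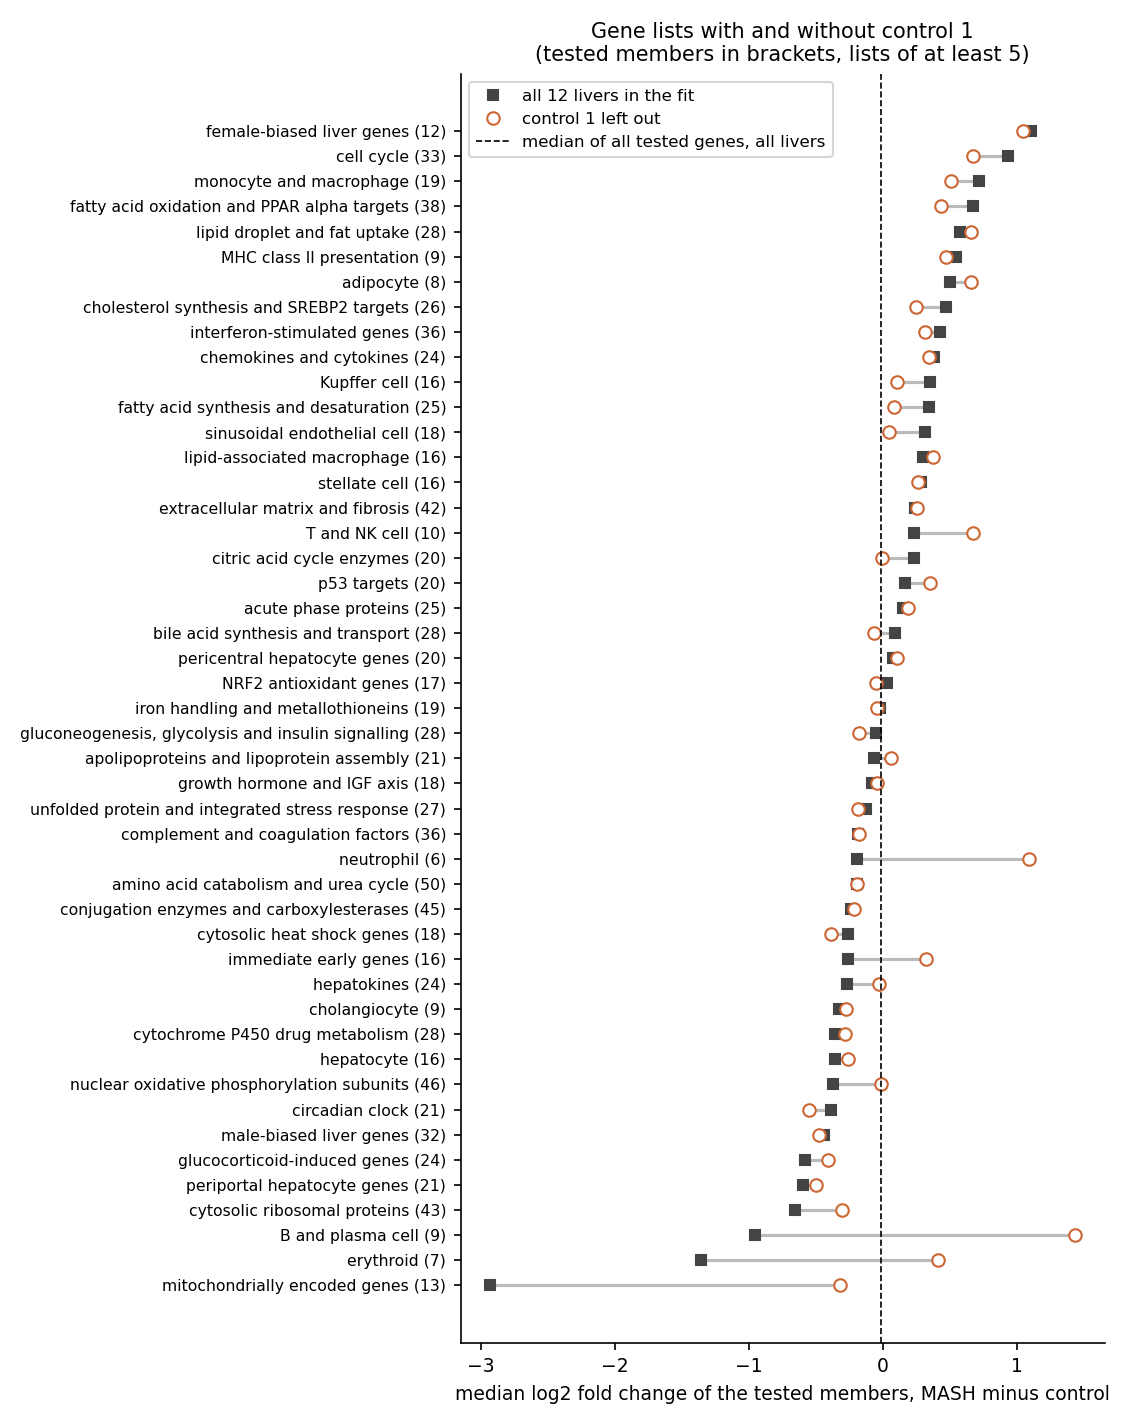
Median log2 fold change, MASH minus control (x axis), of the tested members of each gene list (y axis, number of tested members in brackets) in the fit of all 12 livers (squares) and with control 1 left out (circles), with the median of all tested genes as a dashed line. The squares and circles lie close together for lipid droplet genes (0.57 and 0.66) and far apart for mitochondrially encoded genes (-2.93 and -0.32) and B and plasma cell genes (-0.95 and 1.44).

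Genes of amino acid breakdown and the urea cycle were lower. Of 50 tested members, 32 were negative with control 1 and 39 without it (median -0.19 both ways). In 15 all MASH livers lay below all controls and in 5 above (9.41% and 10.2% of all tested genes), so those above are no excess. Cps1, the entry enzyme of the urea cycle, fell from 4116 and 3538 CPM in control 2 and 3 to 1648, 1484 and 1720 CPM (log2 fold change in the 5 livers -1.22 ± 0.12 SE; edgeR adjusted p = 0.00463). Control 1 had 676 CPM, the lowest of all, so the call does not hold with it (0.68). Cth, which makes cysteine from cystathionine, fell from 402 and 430 CPM to 224, 172 and 180 CPM (0.00976), with 258 CPM in control 1. Gls2, the liver glutaminase, fell from 340 and 336 CPM to 170, 183 and 232 CPM (0.0406), with 450 CPM in control 1. Aass, of lysine breakdown, fell from 250 and 252 CPM to 173, 175 and 178 CPM (0.0437), with 219 CPM in control 1. The other urea cycle enzymes Ass1, Asl, Arg1 and Otc were lower in every MASH liver than in every control, and none passed (0.0714, 0.138, 0.0596 and 0.332 in the 5 livers).

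Outside this list, enzymes of related pathways fell too, picked after their values were seen. Csad, of taurine synthesis, fell from 336 and 306 CPM in control 2 and 3 to 123, 130 and 116 CPM (5 livers adjusted p = 0.00103), while control 1 had 111 CPM. Acmsd, of tryptophan breakdown, fell from 22.1 and 16.9 CPM to 6.15, 5.44 and 6.05 CPM (0.00305), and control 1, at 17.6 CPM, lay between the other controls. Inmt, an N-methyltransferase, fell from 511 and 584 CPM to 255, 286 and 289 CPM (0.00929), with 447 CPM in control 1.

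Genes of the periportal zone were lower as a list. Of 21 tested, 18 were negative with control 1 and 20 without it (medians -0.60 and -0.50). In 8 all MASH livers lay below all controls and in none above, and 3 fell (Gls2, Cps1 and Etnppl). Etnppl, which breaks down phosphoethanolamine, fell from 106 and 113 CPM in control 2 and 3 to 61.4, 38.9 and 46.5 CPM (5 livers adjusted p = 0.0287), with 105 CPM in control 1. Most periportal genes named here are also enzymes of the amino acid list. Of 20 pericentral genes, 12 were positive with control 1 and 11 without it (medians 0.08 and 0.10), with 2 higher (Aldh3a2 and Slc1a4) and 1 lower (Cyp1a2) in the 5 livers. Glul, the glutamine synthetase of the cells around the central vein, stood at 725, 998 and 861 CPM against 1108, 1565 and 1868 CPM, with no overlap (0.147).

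Of 16 hepatocyte markers 13 were negative with control 1 and 12 without it, and Hnf4a, the transcription factor of hepatocyte identity, fell from 541 and 570 CPM in control 2 and 3 to 405, 345 and 353 CPM (5 livers adjusted p = 0.0477), with 502 CPM in control 1. Igfbp2, a binding protein of insulin-like growth factors, fell from 269.9 and 269.9 CPM to 164, 149 and 146 CPM (0.0109), and control 1 had 470 CPM. Pck1, the gluconeogenic carboxykinase, stood at 2160, 1692 and 1965 CPM against 1311, 1203 and 853 CPM (0.109), with no overlap. The glucose-6-phosphatase G6pc stood at 269, 428 and 599 CPM against 562, 542 and 207 CPM, with MASH 3 apart from the other MASH livers. Ldha, a lactate dehydrogenase subunit, rose from 499.8 and 609.5 CPM to 854, 851 and 912 CPM (0.0423), with 133 CPM in control 1.

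Of 24 glucocorticoid-induced genes 17 were negative with control 1 and 18 without it (medians -0.58 and -0.41). In the 5 livers 5 fell and none rose: Glcci1, Zbtb16, Per1, Lpin1 and Angptl4. In 4 of the 24 all MASH livers lay below all controls and in 2 above (9.41% and 10.2% of all tested genes). Per1 and Lpin1 overlapped between the groups with control 1 included. The list was drawn up with earlier results of these data known, the call of Glcci1 among them. Its counts are therefore no separate support for Glcci1, Zbtb16 or the other members. Fkbp5, a chaperone of the receptor, stood at 11.3, 21.9 and 64.6 CPM in controls and 18.0, 19.9 and 28.6 CPM in MASH. Tsc22d3 stood at 78.9, 71.9 and 142 CPM against 91.05, 57.6 and 27.0 CPM. Both overlapped (Fkbp5 0.457 and Tsc22d3 0.579 in the 5 livers). Lcn2, which is also an acute phase gene, was higher in every MASH liver, with 4.12, 2.49 and 2.28 CPM against 13.9, 11.8 and 52.8 CPM (0.239).

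The clock genes separated the MASH livers from each other. Of 21 tested, 14 were negative with control 1 and 16 without it (medians -0.38 and -0.55). All MASH livers lay below all controls for 3 and above for none (9.41% and 10.2% of all tested genes). They lay below control 2 and 3 for 11, where 20.9% of all tested genes did. Per1, a repressor of the clock that glucocorticoids also induce, fell from 21.8 and 29.6 CPM in control 2 and 3 to 9.13, 10.6 and 5.90 CPM (5 livers adjusted p = 0.0425), with 10.6 CPM in control 1. Its window of 250 bases before the start (RefSeq, GRCm38.p6) is printed because an E-box, the CACGTG element bound by the clock activators, lies in it at -166 to -161, in capitals.

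Per1, chr11:69098699-69098948, + strand: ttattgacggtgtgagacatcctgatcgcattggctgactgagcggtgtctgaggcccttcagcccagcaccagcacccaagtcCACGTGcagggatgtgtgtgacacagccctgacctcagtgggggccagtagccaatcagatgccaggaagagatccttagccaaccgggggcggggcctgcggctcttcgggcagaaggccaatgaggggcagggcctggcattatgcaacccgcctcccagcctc

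CACGTG occurred in the promoter windows of 5 of the 18 clock genes with an entry (27.8%) and of 11.7% of all tested genes with one, on either strand. Nr1d1, a repressor of Arntl, stood at 151, 162 and 96.9 CPM in controls and 55.7, 55.7 and 70.3 CPM in MASH, with no overlap (5 livers adjusted p = 0.0846). Bhlhe41, another repressor, stood at 3.32, 9.05 and 7.76 CPM against 0.662, 3.18 and 1.95 CPM (0.122).

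MASH 1 stood apart from all 5 other livers in the clock. Its level of Arntl, the clock activator, was 14.2 CPM, against 1.41 to 2.51 CPM in the rest. Npas2, which pairs with Arntl, reached 3.69 CPM in MASH 1, beside 0.293 and 0.234 CPM in MASH 2 and 3 and 0.0508 to 2.31 CPM in controls. Nfil3 and Cry1, which are high in the opposite phase to Dbp, reached 23.5 and 12.2 CPM in MASH 1, with 9.06 to 12.2 CPM and 5.14 to 7.13 CPM elsewhere. Dbp, an output factor, had a level of 11.5 CPM in MASH 1 against 83.2 to 93.9 CPM in the other 5. Tef, a related factor, stood at 49.1 CPM against 107 to 172 CPM, and Ciart, a repressor, at 0.142 CPM against 1.61 to 9.49 CPM. MASH 2 and MASH 3 lay with the controls for Arntl, Dbp, Nfil3 and Cry1, so a group mean of these genes describes no liver of the group. Neither Arntl nor Dbp passed in the fit of 5 livers (edgeR adjusted p = 0.651 and 0.823).

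**Figure D5:**
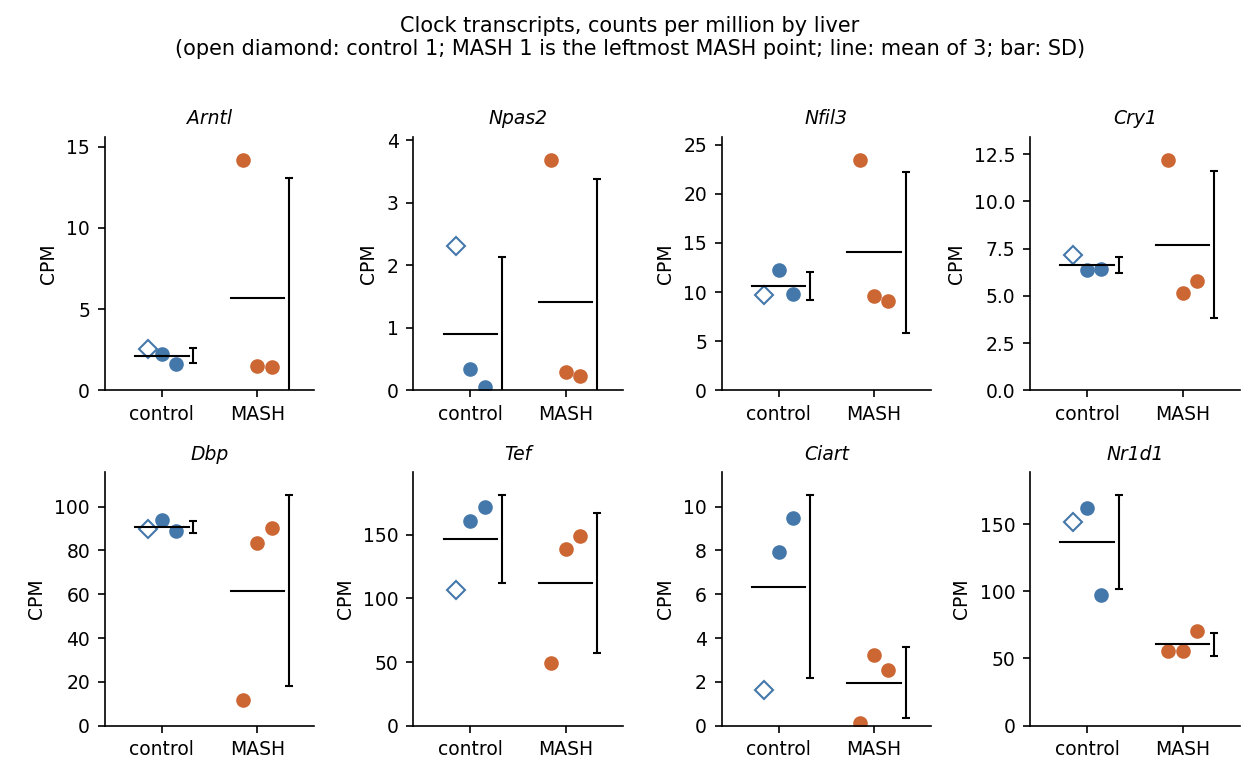
CPM of 8 clock transcripts (1 panel each, y axis from 0) in the control and MASH livers (x axis), with every liver as a point, control 1 as an open diamond, MASH 1 as the leftmost MASH point, the mean of 3 as a line and the SD as a bar. MASH 1 lies above the other 5 livers for Arntl (14.2 CPM) and below them for Dbp (11.5 CPM), Tef and Ciart.

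Liver genes that differ between the sexes, through growth hormone pulses, also split the MASH livers. Of 32 tested male-biased genes 29 were negative with control 1 and 26 without it (medians -0.44 and -0.48), and none passed. Serpina1e, a male-biased antitrypsin of a family of close copies, stood at 5012, 8210.0 and 3567 CPM in controls and 518, 2854 and 543 CPM in MASH. Of 12 tested female-biased genes 8 were positive both ways. The female-biased Cyp2b9 stood at 39.0, 3.60 and 79.2 CPM in MASH 1, 2 and 3. For both genes MASH 2 lay nearer to the controls than MASH 1 and MASH 3.

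Macrophage genes were higher, with low levels. Of 19 tested monocyte and macrophage genes 17 were positive with control 1 and 18 without it (medians 0.72 and 0.51). In 9 all MASH livers lay above all controls and in none below, and control 1 lay below all others for 13. Clec7a, a receptor for fungal sugars on myeloid cells, rose from 2.58 and 1.83 CPM in control 2 and 3 to 6.62, 5.60 and 7.03 CPM (log2 fold change in the 5 livers 1.55 ± 0.22 SE; edgeR adjusted p = 0.0199), with 1.41 CPM in control 1. Cd68, a lysosomal macrophage protein, stood at 2.91, 8.88 and 7.26 CPM against 11.8, 10.7 and 16.1 CPM (0.128).

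The genes of lipid-associated macrophages, which gather in fatty tissue, went both ways, with more of them higher than lower. Of 16 tested, 10 were positive with control 1 and 12 without it (medians 0.30 and 0.38), with 3 higher and 1 lower in the 5 livers. In 7 all MASH livers lay above all controls and in 1 below (10.2% and 9.41% of all tested genes). Trem2, the lipid receptor that defines these cells, had 1, 7 and 10 counts in controls and 30, 48 and 49 in MASH and rose (2.18 ± 0.39; adjusted p = 0.0406). Mmp12, a macrophage elastase, rose from 0.888 and 0.558 CPM to 3.08, 2.55 and 3.90 CPM (0.0243), with 0.704 CPM in control 1. Gpnmb, a membrane protein of lipid-laden macrophages, had 0, 2 and 7 counts against 54, 70 and 216 (0.101). Fabp5, a fatty acid binding protein on the same list, fell from 29.2 and 17.4 CPM to 8.80, 8.57 and 7.58 CPM (0.0215), with 9.45 CPM in control 1. Spp1 and Cd9 overlapped between the groups, and Cd36 and Lgals3 are also expressed outside macrophages.

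Most markers of Kupffer cells were lower in control 1 than in the other 5 livers, which differed little for Clec4f and Timd4. Clec4f, a lectin that marks Kupffer cells, stood at 98.1 and 88.2 CPM in control 2 and 3, 95.9, 100.4 and 92.4 CPM in MASH and 21.5 CPM in control 1. Timd4, of resident Kupffer cells, stood at 5.79 and 3.86 CPM against 5.34, 5.10 and 4.65 CPM, with 2.81 CPM in control 1. Clec4f and Timd4 do not describe every marker of the list. Of 16 markers 14 were positive with control 1 and 11 without it. In 2 all MASH livers lay above all controls and in none below (10.2% and 9.41% of all tested genes), and none passed. The median of the 16 was 0.35 with control 1 and 0.11 without it, and control 1 lay below all others for 14. The log2 fold change of Clec4f in the 5 livers was 0.07 ± 0.10 (SE). The 18 sinusoidal endothelial markers showed the same shift, from 0.31 to 0.05, with control 1 lowest for 15.

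Of 24 tested chemokines and cytokines 18 were positive with control 1 and 17 without it. Ccl2, which recruits monocytes, stood at 0.402, 0.423 and 0.609 CPM against 1.61, 0.962 and 1.99 CPM, with no overlap (5 livers adjusted p = 0.113), and Ccl9 fell from 38.0 and 38.0 CPM in control 2 and 3 to 22.3, 18.9 and 21.9 CPM (0.018), with 34.2 CPM in control 1. Of 36 interferon-stimulated genes 27 were positive with control 1 and 28 without it (medians 0.43 and 0.31), and in 13 all MASH livers lay above all controls. Oasl1 rose from 8.96 and 9.79 CPM to 14.3, 13.9 and 14.9 CPM (0.0485), with 4.52 CPM in control 1. MASH 3 was the highest MASH liver for Cxcl9, a chemokine of activated T cells, with 27.7 CPM beside 13.4 and 8.82 CPM in MASH 1 and 2 and 4.57 to 8.58 CPM in controls. Of 25 tested acute phase genes 17 were positive with control 1 and 15 without it, and Saa1, a serum amyloid, stood at 5.73, 51.0 and 19.1 CPM against 70.2, 69.8 and 180 CPM (0.389). Of 36 complement and coagulation genes 27 were negative with control 1 and 29 without it (medians -0.19 and -0.18), and C2, a complement protease, fell from 107 and 93.4 CPM to 54.2, 57.1 and 61.1 CPM (0.0163), with 60.3 CPM in control 1, inside the MASH range.

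Matrix genes were mostly slightly higher. Of 42 tested, 31 were positive with control 1 and 29 without it (medians 0.24 and 0.26). In 3 of the 42 all MASH livers lay above all controls, a smaller share than the 10.2% of all tested genes. Mmp12 and Loxl1, a lysyl oxidase that crosslinks matrix, rose. Loxl1 went from 0.93 and 0.914 CPM in control 2 and 3 to 2.70, 2.17 and 2.50 CPM (5 livers adjusted p = 0.0466), but control 1 had 3.02 CPM. Col1a1, the main fibrillar collagen chain, stood at 11.3, 7.78 and 8.58 CPM against 14.7, 10.7 and 22.1 CPM (0.182), with MASH 2 inside the control range. Col3a1 overlapped as well (0.275). Acta2, of activated stellate cells and smooth muscle, stood at 28.3, 4.65 and 3.25 CPM in controls and 3.50, 1.17 and 8.28 CPM in MASH. Its sign turned with control 1, from -1.45 with it to 0.14 without it.

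Cell cycle genes were higher at very low levels. Of 33 tested, 29 were positive with control 1 and 30 without it (medians 0.94 and 0.68), and in 15 all MASH livers lay above all controls and in none below, but no member passed any of the 3 fits. The helicase subunit Mcm6 stood at 1.91, 2.71 and 2.28 CPM in controls and 4.12, 4.06 and 6.01 CPM in MASH (5 livers adjusted p = 0.107). Mki67, a marker of dividing cells, stood at 0.603, 0.676 and 0.761 CPM against 1.47, 1.34 and 1.45 CPM (0.152).

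Some lists changed size or sign with control 1. All 13 tested mitochondrially encoded genes had a negative log2 fold change with it (median -2.93) and 12 without it (-0.32), and in 9 every MASH liver lay below every control. The mitochondrial ribosomal RNAs mt-Rnr1 and mt-Rnr2 fell in the 5 livers by 0.82 and 0.77 on the log2 scale (adjusted p = 0.0147 and 0.024). For mt-Rnr1 the levels were 328 and 281 CPM in control 2 and 3 and 161, 166 and 182 CPM in MASH, beside 4425 CPM in control 1, and mt-Rnr2 stood at 4568 CPM there. Of 43 cytosolic ribosomal protein genes 41 were negative with control 1 and 42 without it (medians -0.66 and -0.30). Every MASH liver lay below control 2 and 3 for 40 of them, where 20.9% of all tested genes did, and none passed. Rpl35 stood at 394, 92.7 and 92.1 CPM against 70.6, 68.6 and 64.9 CPM (0.072). Among 46 nuclear subunits of oxidative phosphorylation the median went from -0.37 to -0.01 and 25 changed sign.

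Blood cell genes also turned. The 7 erythroid genes had a median of -1.36 with control 1 and 0.41 without it, and haemoglobin Hba-a1 stood at 1007 CPM in control 1 and 61.2 to 117 CPM in the other 5 livers. The medians of the B and plasma cell genes (9) and neutrophil genes (6) went from -0.95 to 1.44 and from -0.19 to 1.09. No single direction can be given for these lists. Without control 1, 6 of the 9 B and plasma cell genes were positive. The other 3, Igha, Igkc and Jchain, were lower in every MASH liver than in every control. Igha fell from 3.72 and 3.10 CPM in control 2 and 3 to 0.709, 1.13 and 0.82 CPM (5 livers adjusted p = 0.0208), with 11.8 CPM in control 1. Of 18 heat shock genes 14 were negative with control 1 and 16 without it. Every MASH liver lay below control 2 and 3 for 13, where 20.9% of all tested genes did. All MASH livers lay below all 3 controls for 3 and above for 0 (9.41% and 10.2% of all tested genes). Control 1 lay below all other livers for 10 of the 18. Hspa8, the constitutive cytosolic chaperone, stood at 1062, 1547 and 1397 CPM against 1087, 822 and 845 CPM (5 livers adjusted p = 0.0628). Herpud1, of protein degradation at the endoplasmic reticulum, fell from 513 and 491 CPM in control 2 and 3 to 265, 219 and 222 CPM (0.00662), but control 1 had 128 CPM.

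Other cell types were covered by marker lists. Of 16 stellate cell genes 12 were positive with control 1 and 14 without it (medians 0.28 and 0.26), and none passed. Of 10 tested T and NK cell genes 6 were positive with control 1 and 10 without it (medians 0.24 and 0.68). MASH 3 held most counts of several T cell genes below the filter: Cd8a had 3, 1 and 2 counts in controls and 6, 10 and 71 in MASH. Of 9 tested cholangiocyte genes 7 were negative both ways (medians -0.32 and -0.28). The 28 genes of bile acid synthesis and transport had medians of 0.09 and -0.06, and none passed.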

How the data were processed

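Polyadenylated RNA of whole mouse liver was sequenced from stranded libraries as paired reads of 150 bases, per the labels. The authors deposited expected counts per gene for 12 livers. GRCm39 and fastp are named in the submitters' processing notes, while the aligner, counter, annotation and strand setting were not given in the sources used here. Gene symbols came from a GENCODE M21 gene table, which matched 22603 of 28036 identifiers. Promoter windows came from RefSeq on GRCm38.p6, a different build from that of the counts, and no coordinate was converted.

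Expected counts were rounded, filtered with filterByExpr, scaled by the trimmed mean of M values and tested with edgeR 4.0.16 (robust quasi-likelihood F test, Benjamini-Hochberg adjustment over 13988 genes, threshold 0.05) in R 4.3.3. All 4 groups entered the fit, once with control 1 and once without it. Standard errors are the log2 fold change divided by the square root of F. Alternatives used DESeq2 1.42.0 and limma 3.58.1 voom, other scalings and filters, and left-out livers. On counts simulated for the same 13988 genes, the fit of all livers recovered 15% of 2-fold and 70% of 4-fold changes. The fit of the 5 livers recovered 3% and 51%. The simulated spread was not set to that of the 5 livers alone. Their common biological coefficient of variation was 0.158, against 0.334 with all livers. The 3% and 51% therefore do not give the sensitivity of the fit of the 5 livers on the real counts, which was not tested. Named genes were those called in either main fit, those farthest apart without overlap, and up to 6 of each list. The members and lists were chosen with earlier results of these data known. The lists share members.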

Additional observations from a re-analysis of the deposited data

How the results depend on the processing

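Limits include the 3 livers a group, control 1, low counts and the treated livers that enter the shared estimate of spread. Without control 1, the common biological coefficient of variation was 0.27 with the treated livers and 0.158 in the 5 livers. With all 12 livers the count of called genes (2) became 1 with library totals alone or limma voom, 87 with DESeq2, 555 with voom quality weights, 34 with no filter and 0 in the 6 livers alone (edgeR, 1174 at an unadjusted p below 0.05). Leaving out 1 liver gave 0 to 4. In the 6 livers, chosen after seeing the data, quality weights gave 391 and the replicate block 0. Without control 1 the count (4) became 2 with library totals, 74 with DESeq2, 543 with quality weights, 296 with no filter, 217 in the 5 livers and 10 with resmetirom 2 left out too, and 0 to 0 with 1 more liver left out. The alternatives of the 5 livers were added after seeing the data. Their count (217) became 656 with DESeq2, 139 with voom, 420 with quality weights, 1306 with no filter and 94 when the log2 change also had to reach 1, and 13 to 307 with 1 liver left out. Where a group then has 1 liver, that liver is assumed to vary like the other group. The cause of these differences was not tested.

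Same-numbered livers share only a number: the correlations of their deviations were -0.015, 0.074 and -0.026. A replicate block gave 2 genes with all livers, 3 without control 1 and 417 in the 5 livers. Library totals alone shifted the median of all genes to 0.37 with all livers and 0.10 without control 1, and changes are read relative to that shift. Relative to it, the apolipoprotein, NRF2 antioxidant and neutrophil lists had medians that changed sign under a scaling with all livers.

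Some named genes, none of them called with all livers, had a log2 fold change of the other sign. In the 5 livers it was 0.15 for Acta2, -0.21 for G6pc and 0.42 for Hba-a1. With library totals alone it was 0.071 for Alb, 0.23 for Apob, 0.16 for Car3, 0.064 for Cd9 and 0.32 for Spp1. With limma voom it was 0.055 for Cyp2c29 and -0.013 for G6pc. With voom quality weights it was -0.017 for Fasn, -0.14 for G6pc, 0.22 for Hba-a1, -0.016 for Mttp and 0.016 for Spp1. With quality weights in the 6 livers it was -0.0059 for Fasn, -0.14 for G6pc, 0.23 for Hba-a1, -0.00087 for Mttp and 0.017 for Spp1. With the replicate block in the 6 livers it was -0.014 for G6pc. With 1 liver left out the values ranged from -2.35 to 0.14 for Acta2, from -0.26 to 0.10 for Apob, from -0.53 to 1.89 for Arntl, from -0.28 to 0.44 for Cry1, from -0.95 to 0.41 for Fkbp5, from -0.22 to 0.35 for G6pc, from -2.52 to 0.41 for Hba-a1, from -0.0082 to 0.51 for Mttp, from -0.18 to 0.64 for Nfil3, from -1.62 to 2.75 for Npas2 and from -0.33 to 0.24 for Spp1.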

Other observations

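The genes in these paragraphs were picked from the fit of the 5 livers after their values were seen, and none of them passed with all 12 livers. Several transcripts outside the lists were higher in MASH. Sema5b, a semaphorin of axon guidance, stood at 2.21, 1.48 and 1.62 CPM in control 1, 2 and 3 and 6.24, 7.61 and 8.01 CPM in MASH (log2 fold change in the 5 livers 2.253; edgeR adjusted p = 0.00418). Stap1, a signalling adaptor of blood cells, stood at 1.105, 0.761 and 0.609 CPM against 4.30, 3.30 and 3.94 CPM (0.00788). Mtnr1a, a melatonin receptor, stood at 0.904, 0.592 and 0.406 CPM against 2.70, 2.63 and 1.95 CPM (0.0213). For all 3 the groups were apart with control 1 included. Cldn2, a tight junction protein, stood at 20.0, 71.1 and 77.2 CPM against 110.3, 120.4 and 129 CPM (0.0239), with control 1 the lowest.

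Other transcripts were lower. Malat1, a long nuclear RNA, stood at 178, 56.9 and 74.2 CPM in controls and 28.8, 25.5 and 31.2 CPM in MASH (log2 fold change in the 5 livers -1.18; edgeR adjusted p = 0.0105). The transcription factors Zbtb20 and Foxp1 were lower too. Zbtb20 stood at 90.0, 95.1 and 63.6 CPM against 40.9, 34.5 and 29.9 CPM (0.0406), and Foxp1 at 25.3, 12.6 and 14.1 CPM against 7.95, 7.24 and 6.79 CPM (0.0287). Every MASH liver lay below every control for these 3 genes.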
